A study of Populus ussuriensis with 12 samples.

Results

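Drought changed leaf gene expression differently in poplars that overexpress the microRNA Pu-miR172d (OE) than in wild type (WT), and the difference between these responses is described here gene by gene. For each gene the interaction is the drought response of OE leaves minus that of WT leaves, each response being the mean of the drought libraries minus the mean of the watered libraries on the log2(FPKM + 1) scale. Of the 35747 genes measured, the 25373 with at least 1 FPKM (fragments per kilobase, scaled to library size) in 3 or more of the 12 libraries were tested, and 3822 passed the interaction test (limma, Benjamini-Hochberg adjusted p under 0.05). All 12 libraries entered the test, values after ± are standard errors, and this scale understates the changes of genes with few FPKM. The tissue was leaves 7 and 8, counted from the shoot tip, of greenhouse plants of Populus ussuriensis aged 70 days in soil. The 4 groups were WT watered (replicates 1 to 3), WT kept 4 days without water (replicates 4 to 6), and OE plants under the same treatments with the same numbers. The labels name neither the promoter nor the number of transgenic lines behind OE, nor whether each replicate was its own plant. The p-values therefore reflect spread between libraries, which may be technical.

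Loss of water raises the hormone abscisic acid (ABA), which closes stomata and, through SnRK2 kinases and bZIP factors, turns on genes for protective proteins, while photosynthesis and growth genes are shut down. Ethylene, jasmonate and calcium signals join in as the stress deepens and the leaf ages. miR172 is a conserved plant microRNA that represses transcription factors of the APETALA 2 (AP2) type, best known for their roles in ageing and flowering. A positive interaction means that a gene rose more, or fell less, in OE than in WT leaves, and a negative interaction the reverse.

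Depth, worked back from the FPKM values, was 9682111 to 12131416 fragments per library. WT drought replicate 6 had the lowest mean correlation with its own group (0.926). The value was 0.947 and 0.950 for WT drought replicates 4 and 5, 0.949 and 0.952 for OE watered replicates 2 and 3, and 0.962 to 0.980 for the other 7 libraries. OE drought replicates 4 and 6 differed least of all replicate pairs, with a chi-square of 3.69 per gene against 11.5 to 66.4 for the other pairs within a group. Photosystem and antenna genes (100), which mark leaf mesophyll, summed to 68056 to 77190 FPKM in watered WT and 50544 to 72672 in watered OE leaves. In drought the sums were 8615 to 10375 in WT and 786 to 3604 in OE. The meristem list matched 1 gene, at 1.53 FPKM or below in every library. In leaf pieces, fewer cells of a type and less RNA per cell cannot be told apart.

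Across all tested genes the responses ran in parallel, with a correlation of 0.85 across genes and a slope of 1.04 for OE on WT, and they share no library. The genes past the interaction test were 15.1% of those tested. In 1163 genes (4.58% of those tested) the OE response lay above the WT response, and in 2659 genes (10.5%) it lay below. At an unadjusted p under 0.05 there were 8636 genes. The interactions past the test ran from -6.46 to 6.55, with a median size of 1.36, and 3015 of them had a size of at least 1. Most of the genes past the test differed between genotypes in drought and few when watered: 3402 of the 3822 (89%) also differed between OE and WT drought leaves, and 32 in watered leaves. Over all tested genes 7517 (29.6%) differed between genotypes in drought and 35 (0.138%) in watered leaves. Over all genes the median size of the response was 0.65 in WT and 0.80 in OE leaves, and the OE response was the larger in 59.7% of genes (0.57, 0.81 and 65.1% with median-of-ratios scaling).

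The share of negative interactions depended on how the libraries were scaled. With FPKM as deposited, 69.6% of the genes past the test were negative and the median of all tested genes was -0.28. With median-of-ratios scaling, 3088 genes passed, 2036 of them positive (8.02% of tested genes) and 1052 negative (4.15%), so that 34.1% of the calls were negative. The median was 0.04, a shift of 0.32. The 2213 genes called the same way under both scalings were 1161 positive (4.58%) and 1052 negative (4.15%). The number of calls also moved with single libraries: 6728 passed without WT drought replicate 6, and 1478 without WT watered replicate 2. Without WT watered replicate 1, WT watered replicate 3, WT drought replicate 4, WT drought replicate 5, OE watered replicate 1, OE drought replicate 4 or OE drought replicate 5 the count was 2061, 2231, 1965, 2425, 2078, 2272 or 2392. In every fit that left out 1 library 1362 genes kept their call and sign, 575 positive and 787 negative.

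**Figure D1:**
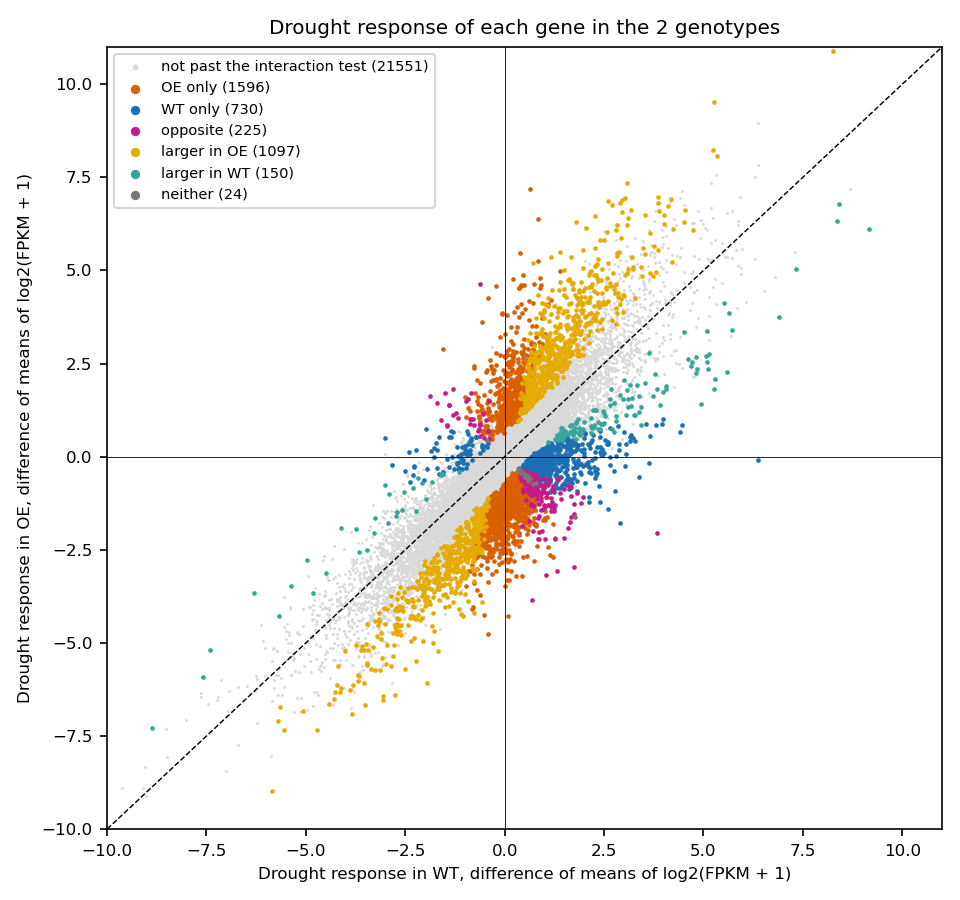
Drought response in OE leaves against that in WT leaves for the 25373 tested genes, each a difference of group means of log2(FPKM + 1), with genes past the interaction test coloured by response class and the dashed line marking equal responses. Genes coloured OE only (1596) lie along the vertical axis, those coloured WT only (730) along the horizontal axis, and the 225 opposite genes in the upper left and lower right.

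Genes past the interaction test were sorted by the drought response within each genotype, at the same threshold. Drought changed 1596 genes in OE leaves only, 1157 of which fell and 439 of which rose. In WT leaves only, 662 rose and 68 fell. Another 225 genes moved in opposite directions: 193 rose in WT and fell in OE leaves, and 32 fell in WT and rose in OE leaves. In 1097 genes the responses had the same sign and were larger in OE leaves (592 rose and 505 fell), and in 150 they were larger in WT leaves (119 rose and 31 fell). The last 24 passed in neither genotype. A response that misses the threshold is not shown to be absent, so the 95% interval of the other genotype's response was also read: it lay within a log2 change of 1 on either side of 0 for 1188 of the 1596 OE only genes and 567 of the 730 WT only genes. Under median-of-ratios scaling the OE only genes were 1410 (961 rose and 449 fell), the WT only genes 352 (187 rose and 165 fell) and the opposite genes 134 (83 rose in OE and 51 rose in WT). In every fit without 1 library, 395 of the OE only, 120 of the WT only and 35 of the opposite genes stayed in their class and direction.

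**Figure D2:**
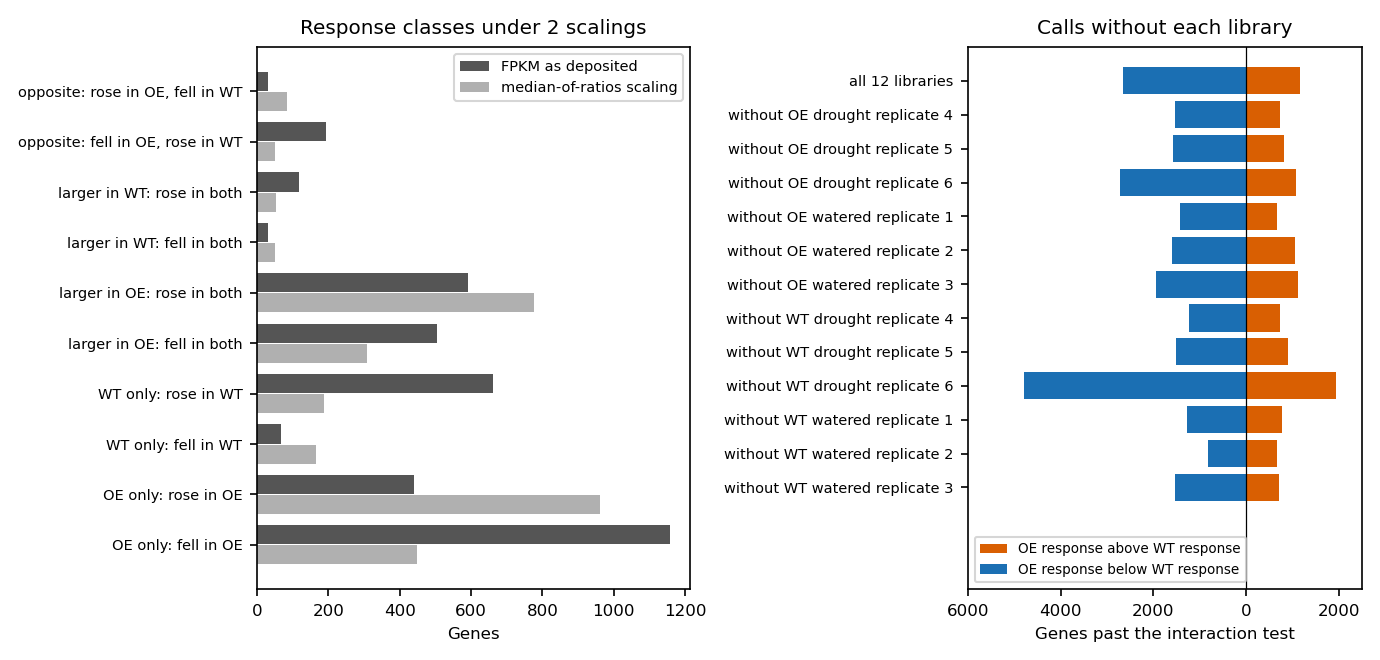
Left, number of genes in each response class with FPKM as deposited (dark bars) and with median-of-ratios scaling (light bars); right, genes past the interaction test with all 12 libraries and without each library, positive interactions to the right and negative ones to the left. OE only genes that fell drop from 1157 to 449 between the scalings, and the total runs from 1478 without WT watered replicate 2 to 6728 without WT drought replicate 6.

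Among the genes that rose in OE leaves only were a secretion factor, stress regulators and calcium sensors. EXO70A1 (Potri.001G234600, chromosome 1, 24662395 to 24664623, minus strand), a subunit of the exocyst that tethers secretory vesicles to the plasma membrane, stood at 0.765, 0.829 and 3.89 FPKM in watered and 1.27, 2.42 and 6.6 FPKM in drought WT leaves. OE leaves had 0.461, 1.05 and 0.504 FPKM watered and 224, 307 and 201 FPKM in drought. The 3 OE drought libraries lay far above the other 9, of which none exceeded 6.6 FPKM. Its interaction was 6.55 ± 0.64 (adjusted p = 0.000434), the largest positive value, made of a response of 7.19 ± 0.45 (adjusted p = 1.77e-07) in OE and 0.63 ± 0.45 (adjusted p = 0.248) in WT leaves. The zinc finger repressor ZAT11 (Potri.001G235800) showed 1.32, 0.833 and 3.32 FPKM in watered and 0.919, 3.03 and 4.36 FPKM in drought WT leaves. OE plants showed 0.8, 1.09 and 0.109 FPKM watered and 57.8, 110 and 54.7 FPKM in drought (interaction 5.08 ± 0.62, adjusted p = 0.00129). The calcium-binding protein CML37 (Potri.002G001400), a calmodulin-like sensor, showed 0.641, 0.564 and 1.1 FPKM in watered and 0.747, 1.33 and 1.05 FPKM in drought WT leaves. Levels in OE were 0.993, 1.48 and 0.296 FPKM watered and 47.1, 65.3 and 39.2 FPKM in drought, and its interaction was 4.55 ± 0.37 (adjusted p = 0.000135). For both genes the OE drought libraries stood above all the others and the remaining groups overlapped. MYB39 (Potri.013G148600), a MYB factor that in Arabidopsis directs suberin deposition, was near 0 elsewhere and rose in OE drought leaves, with 0, 0 and 0.335 FPKM in watered and 0.0696, 0.695 and 0.742 FPKM in drought WT leaves. OE libraries stood at 0.151, 0.414 and 0.248 FPKM watered and 30.7, 29.5 and 29.5 FPKM in drought (interaction 4.19 ± 0.30, adjusted p = 7.22e-05). MYB39 entered the test only through its OE drought libraries, since no other library reached 1 FPKM. A GDSL esterase/lipase (Potri.011G089700) rose as well (interaction 4.19 ± 0.72, adjusted p = 0.00585), though OE drought replicate 5 stood at 7.17 FPKM against 33.4 and 40.6 in the other OE drought libraries. The related sensor gene CML38 (Potri.005G259900, chosen after its values were seen) had an interaction of 4.41 ± 0.58 (adjusted p = 0.00183) with OE drought levels of 116, 236 and 74.6 FPKM against 4.7, 5.47 and 4.22 FPKM in WT drought.

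Genes that fell in OE leaves only included protectants and redox enzymes. Abscisic stress-ripening protein 3 (ASR3, Potri.005G193600, chromosome 5, 21084478 to 21085931, plus strand), of a small family of plant proteins tied to ABA and drying, stood at 154, 143 and 186 FPKM in watered and 118, 194 and 73.5 FPKM in drought WT leaves. OE plants showed 277, 448 and 350 FPKM watered and 12.1, 12.6 and 11.7 FPKM in drought. It was lowest in all 3 OE drought libraries, while WT watered and WT drought overlapped. The interaction was -4.32 ± 0.42 (adjusted p = 0.000431), with -4.75 ± 0.30 (adjusted p = 1.7e-07) in OE and -0.43 ± 0.30 (adjusted p = 0.238) in WT leaves. Peroxidase 42 (Potri.004G015300), a secreted enzyme of the cell wall, went from 1731, 1750 and 2646 FPKM to 115, 79.7 and 125 FPKM in OE leaves and from 1315, 1547 and 1556 FPKM to 1094, 959 and 1012 FPKM in WT leaves (interaction -3.72 ± 0.38, adjusted p = 0.000569). Its WT groups did not overlap either, but that response missed the threshold (adjusted p = 0.119). Monothiol glutaredoxin-S2 (Potri.010G021800), a small redox protein, had an interaction of -3.65 ± 0.97 (adjusted p = 0.03), with WT watered libraries spread over 1.23, 2.53 and 24.3 FPKM. The call was lost without any 1 library other than OE drought replicates 4 and 6, OE watered replicate 2, WT drought replicate 6 and WT watered replicate 3 (adjusted p 0.0536 to 0.0767), against 0.0014 to 0.0767 over all settings. The sucrose transporter SUC2 (Potri.019G085800, chosen after its values were seen), which loads sugar into the veins and is taken as a phloem marker, showed 28.6, 24.4 and 35.5 FPKM in watered and 51.6, 46.7 and 28.6 FPKM in drought WT leaves. OE libraries stood at 45, 53.8 and 34 FPKM watered and 16.4, 14.4 and 16 FPKM in drought (interaction -1.90 ± 0.33, adjusted p = 0.00609). Its OE drought libraries were the lowest of all, and its WT groups overlapped. Trehalose-phosphate phosphatase J (Potri.005G166700), which makes the sugar trehalose, stood at 15.6, 23.5 and 13.3 FPKM in OE watered and 2.97, 2.4 and 2.83 FPKM in OE drought libraries (interaction -2.68 ± 0.51, adjusted p = 0.00875). Superoxide dismutase [Cu-Zn] 2 (Potri.013G056900), which removes superoxide, had an interaction of -1.80 ± 0.42 (adjusted p = 0.0193). In WT leaves it stood higher in drought without overlap, at 5.15, 4.52 and 3.88 FPKM watered and 10.9, 6.69 and 5.91 FPKM in drought. That WT response of 0.65 ± 0.30 missed the threshold (adjusted p = 0.0824), so a rise in WT leaves is not shown to be absent.

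The gene with the most negative interaction of all was a drought regulator that rose in WT only and was already high in watered OE leaves. ATHB-7 (Potri.014G103000, chromosome 14, 8085842 to 8087890, minus strand), a homeodomain-leucine zipper factor induced by ABA and water deficit in Arabidopsis, stood at 14.4, 2.21 and 11.5 FPKM in watered and 856, 820 and 498 FPKM in drought WT leaves. OE plants showed 1242, 1854 and 1210 FPKM watered and 1370, 1109 and 1518 FPKM in drought. Watered WT leaves were low and the other 3 groups were high, with every OE library above every WT drought library. It rose by 6.37 ± 0.49 (adjusted p = 1.38e-06) in WT leaves, whereas the OE response was -0.09 ± 0.49 (adjusted p = 0.882), and the interaction was -6.46 ± 0.69 (adjusted p = 0.000648). OE and WT watered leaves differed by 7.37 ± 0.49 (adjusted p = 0.000112), which makes it one of the 32 interaction genes with a difference before drought. A second ATHB-7 gene (Potri.001G083700) did not share this level in watered OE leaves: it showed 1.78, 2.48 and 1.6 FPKM in watered and 249, 162 and 69 FPKM in drought WT leaves. Levels in OE were 5.39, 3.7 and 4.87 FPKM watered and 29.3, 21.2 and 29.2 FPKM in drought. It rose in both genotypes and more in WT (5.60 ± 0.36, adjusted p = 4.19e-07 against 2.28 ± 0.36, adjusted p = 0.000177 in OE), with an interaction of -3.31 ± 0.51 (adjusted p = 0.00362). A translocator protein homolog (Potri.002G206100), of a membrane protein family induced by ABA in Arabidopsis, stood at 2.92, 1.72 and 2.85 FPKM in watered and 125, 82.8 and 35.8 FPKM in drought WT leaves. OE libraries stood at 8.44, 15.3 and 6.98 FPKM watered and 13.7, 18 and 15.9 FPKM in drought (interaction -3.76 ± 0.55, adjusted p = 0.00296). Its WT drought libraries were the highest of all and its OE groups overlapped. A WAT1-related transporter (Potri.006G082700) showed 6.67, 3.03 and 9.14 FPKM in watered and 53.4, 96.2 and 17.8 FPKM in drought WT leaves. OE leaves had 30, 32.9 and 40 FPKM watered and 18.9, 11.8 and 23.6 FPKM in drought. The interaction was -3.70 ± 0.72 (adjusted p = 0.00974). In OE leaves it was higher when watered than in drought, though that response of -0.93 ± 0.51 (adjusted p = 0.131) missed the threshold.

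Few genes fell in WT leaves only. KAT1 (Potri.004G132200, chromosome 4, 15085707 to 15091097, plus strand), the inward potassium channel of guard cells, stood at 5.45, 6.4 and 6.82 FPKM in watered and 0.459, 1.19 and 1.51 FPKM in drought WT leaves. OE plants showed 5.03, 6.74 and 5.43 FPKM watered and 7.11, 4.83 and 7.66 FPKM in drought. The 3 WT drought libraries were the lowest and the other 9 lay together, and it fell in WT (-1.85 ± 0.23, adjusted p = 5.18e-05) with an OE response of 0.15 ± 0.23 (adjusted p = 0.591) and an interaction of 2.00 ± 0.33 (adjusted p = 0.00469). RADIALIS (Potri.004G155400), a MYB-type factor, was found almost wholly in WT watered leaves, with 6.81, 8.74 and 3.71 FPKM in watered and 0 FPKM in each library in drought WT leaves. Levels in OE were 0, 0 and 0.574 FPKM watered and 0 FPKM in each library in drought (interaction 2.61 ± 0.36, adjusted p = 0.00232). RADIALIS entered the test only through its WT watered libraries, since no other library reached 1 FPKM. Watered OE and WT leaves differed by -2.61 ± 0.26 (adjusted p = 0.00182), and groups listed at 0 make its interaction a difference on the log2(FPKM + 1) scale with no fold behind it. Leucoanthocyanidin dioxygenase (Potri.016G117100), an enzyme of anthocyanin synthesis, showed 34.3, 54.1 and 57.1 FPKM in watered and 1.27, 5.88 and 12.7 FPKM in drought WT leaves. OE libraries stood at 28.8, 31 and 28.1 FPKM watered and 63.3, 14.1 and 79.8 FPKM in drought (interaction 3.52 ± 0.92, adjusted p = 0.0284). It missed the threshold without OE drought replicate 4, OE watered replicates 1 or 2, WT drought replicate 4 or WT watered replicates 2 or 3 (adjusted p 0.0502 to 0.0679) and with OE drought replicates 4 and 6 averaged (0.0551), against 0.000305 to 0.0679 over all settings. The wall enzyme xyloglucan endotransglucosylase/hydrolase 23 (Potri.006G071200) had WT levels of 45.4, 66.2 and 51.3 FPKM watered and 20.5, 10.8 and 9.78 FPKM in drought, and OE levels of 31, 24.4 and 115 and 69.8, 92.3 and 65.2 FPKM (interaction 2.70 ± 0.66, adjusted p = 0.023). It no longer passed without OE drought replicate 5, OE watered replicate 1 or WT watered replicate 2 (adjusted p 0.0516 to 0.061), against 0.00124 to 0.061 over all settings.

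**Figure D3:**
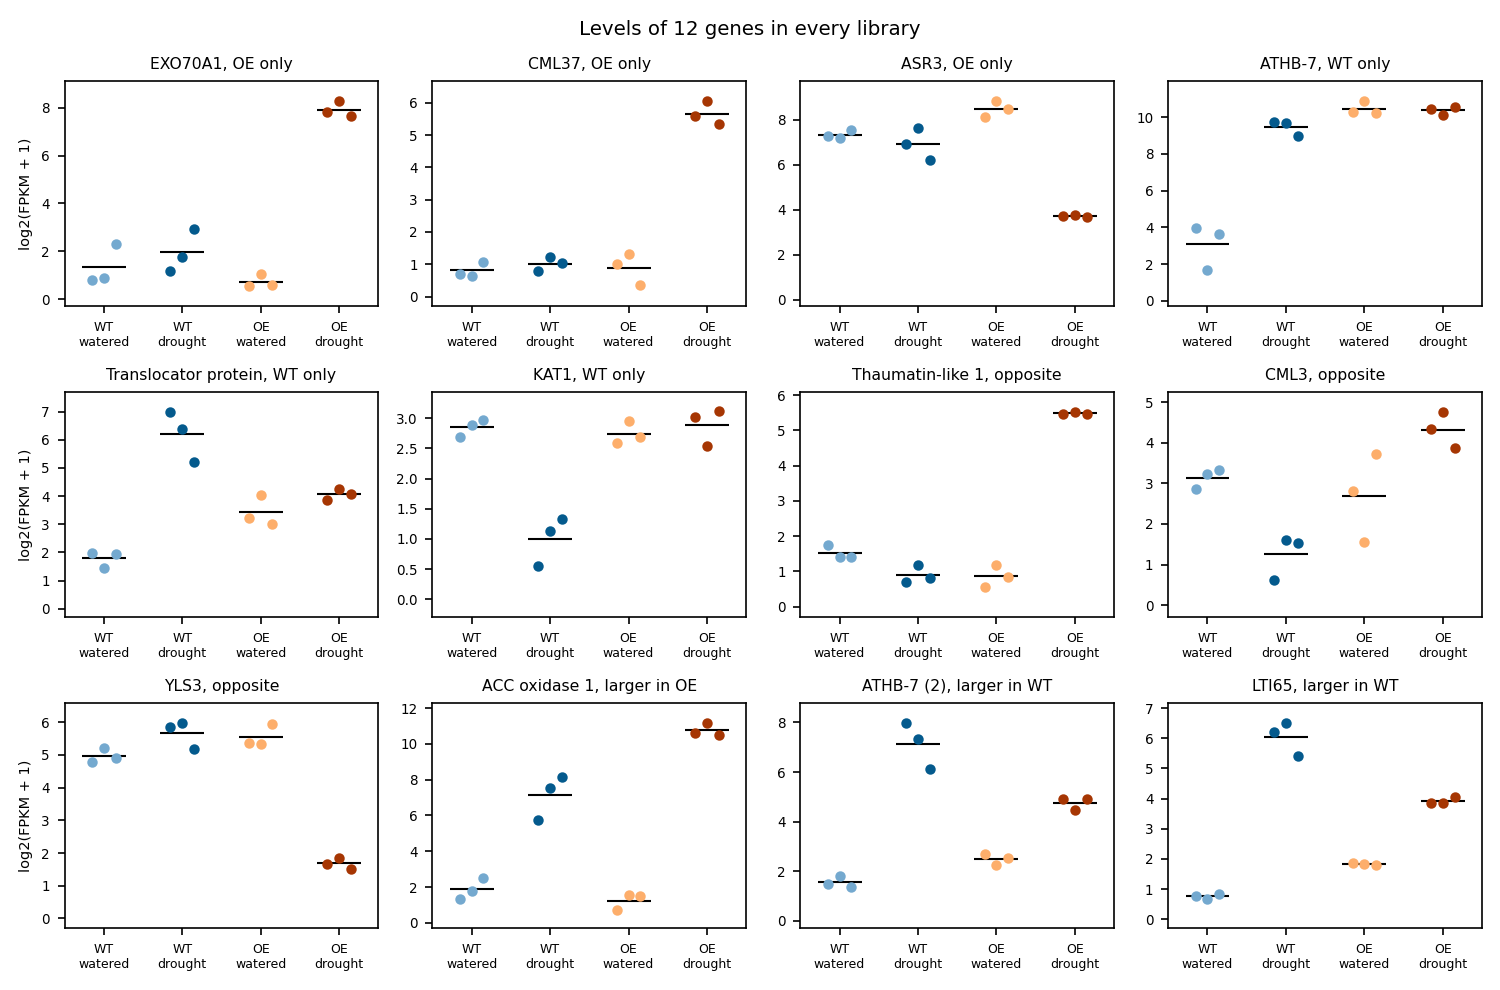
Levels of 12 genes in every library as log2(FPKM + 1), with points for the 3 libraries of each group and lines at the group means. EXO70A1, CML37 and thaumatin-like protein 1 are high in the OE drought libraries only, ATHB-7 (Potri.014G103000) is low in the WT watered libraries only, and KAT1 is low in the WT drought libraries only; the panel marked ATHB-7 (2) is Potri.001G083700.

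Other genes responded in opposite directions in the genotypes. Of those that rose in OE and fell in WT leaves, thaumatin-like protein 1 (Potri.005G112700, chromosome 5, 8643896 to 8646517, minus strand), of a family of pathogenesis-related proteins, stood at 2.39, 1.65 and 1.64 FPKM in watered and 0.612, 1.27 and 0.775 FPKM in drought WT leaves. For OE the values were 0.461, 1.29 and 0.784 FPKM watered and 42.8, 45 and 43.5 FPKM in drought. All OE drought libraries lay above all others, and the WT groups did not overlap. It rose by 4.63 ± 0.20 (adjusted p = 2.75e-08) in OE and changed by -0.62 ± 0.20 (adjusted p = 0.0219) in WT leaves (interaction 5.25 ± 0.29, adjusted p = 1.46e-05). The fall in WT was lost without WT drought replicate 4 or WT watered replicate 1 (adjusted p 0.079 to 0.0895). A calmodulin-like protein 3 gene (Potri.T124900) showed 6.3, 8.3 and 9.07 FPKM in watered and 0.539, 2.04 and 1.88 FPKM in drought WT leaves. The OE libraries held 5.97, 1.92 and 12.2 FPKM watered and 19.2, 26.1 and 13.7 FPKM in drought, with 1.64 ± 0.46 (adjusted p = 0.00855) in OE, -1.89 ± 0.46 (adjusted p = 0.00466) in WT and an interaction of 3.52 ± 0.65 (adjusted p = 0.00794). The WT drought libraries and OE watered replicate 2 were the lowest and the OE drought libraries the highest. Allene oxide cyclase (Potri.004G102500), which forms the ring of the jasmonate precursor, showed 101, 190 and 357 FPKM in watered and 61.5, 64.6 and 48.3 FPKM in drought WT leaves. In OE leaves the level was 115, 77.4 and 133 FPKM watered and 420, 111 and 523 FPKM in drought (interaction 3.15 ± 0.77, adjusted p = 0.0229). The interaction was lost without OE drought replicate 4 or WT watered replicate 2 (adjusted p 0.0522 to 0.0553), against 0.00102 to 0.0553 over all settings. The rise in OE was lost without OE drought replicates 4 or 6 or OE watered replicates 1 or 2 (adjusted p 0.0661 to 0.143), with no filter (0.0526) and with OE drought replicates 4 and 6 averaged (0.129). The fall in WT was lost without WT drought replicate 6 or WT watered replicate 3 (adjusted p 0.0515 to 0.0838).

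Of the genes that rose in WT and fell in OE leaves, YLS3 (Potri.003G217000, chromosome 3, 21369531 to 21373193, plus strand), a lipid transfer-like protein named for yellow leaves in Arabidopsis, stood at 26.7, 35.8 and 29.2 FPKM in watered and 56.9, 61.7 and 34.9 FPKM in drought WT leaves. In OE leaves it had 39.9, 39.2 and 60.5 FPKM watered and 2.17, 2.62 and 1.88 FPKM in drought. OE drought was far below the other groups, and WT drought replicate 6 lay within the WT watered range. It changed by -3.86 ± 0.24 (adjusted p = 1.5e-07) in OE and by 0.69 ± 0.24 (adjusted p = 0.0253) in WT leaves, for an interaction of -4.55 ± 0.33 (adjusted p = 7.22e-05). The rise in WT was lost without WT drought replicates 4 or 5 or WT watered replicates 1 or 3 (adjusted p 0.0652 to 0.0983) and on median-of-ratios scaling (0.204). Of 2 genes described as chaperone protein dnaJ 11, a plastid co-chaperone, Potri.004G172300 showed 6.13, 10.4 and 28.8 FPKM in watered and 51.5, 30 and 56.3 FPKM in drought WT leaves. For OE the values were 113, 65.6 and 69.1 FPKM watered and 13.8, 4.31 and 13.2 FPKM in drought (interaction -4.72 ± 0.72, adjusted p = 0.0035). Its rise in WT was lost without WT watered replicate 1 (adjusted p 0.0556). For the other, Potri.009G131800, the interaction was -4.23 ± 0.56 (adjusted p = 0.00185) with WT levels of 2.48, 4.06 and 4.8 FPKM watered and 15.1, 5.92 and 6.94 FPKM in drought. The rise in WT was lost without OE drought replicate 4, OE watered replicate 1, WT drought replicate 4 or WT watered replicates 1 or 2 (adjusted p 0.0506 to 0.173) and with a pseudocount of 0.1, with no filter, on median-of-ratios scaling, when scaled without the 100 most abundant genes or with voom (0.0603 to 0.109). Reads of such similar copies may be shared between them. ATG8g (Potri.002G144600), a protein of autophagosome membranes, had a WT response of 0.98 ± 0.27 (adjusted p = 0.00925), an OE response of -0.81 ± 0.27 (adjusted p = 0.0207) and an interaction of -1.79 ± 0.38 (adjusted p = 0.0142). The fall in OE was lost without OE drought replicates 5 or 6 or OE watered replicate 3 (adjusted p 0.0516 to 0.0581). The ABA-activated kinase SRK2E (Potri.009G106900, chosen after its values were seen), known as OST1 in Arabidopsis guard cells, showed 18.2, 19.5 and 22.2 FPKM in watered and 56.4, 52.7 and 46.5 FPKM in drought WT leaves. In OE leaves the level was 23, 33.9 and 28.2 FPKM watered and 19.4, 14.8 and 22.8 FPKM in drought, with 1.33 ± 0.19 (adjusted p = 0.000116) in WT, -0.56 ± 0.19 (adjusted p = 0.0206) in OE and an interaction of -1.89 ± 0.26 (adjusted p = 0.00232). WT drought lay above all other groups, and OE drought lay below OE watered. The fall in OE was lost without OE drought replicate 5 or OE watered replicate 2 (adjusted p 0.08 to 0.0823).

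Where both genotypes responded the same way, OE leaves went further in 1097 genes and WT leaves in 150. YLS9 (Potri.006G204300), an NDR1-like protein induced in ageing and infected leaves, stood at 6.27, 3.93 and 5.94 FPKM in watered and 18.2, 28.9 and 17.1 FPKM in drought WT leaves. In OE leaves it had 2.41, 2.02 and 4.3 FPKM watered and 262, 475 and 206 FPKM in drought, which gave 6.29 ± 0.32 (adjusted p = 5.25e-08) in OE, 1.80 ± 0.32 (adjusted p = 0.000691) in WT and an interaction of 4.49 ± 0.46 (adjusted p = 0.000555). OE drought lay above WT drought, and WT drought above both watered groups. A plasma membrane calcium pump of the ACA13 type (Potri.008G159100) had OE drought levels of 48.5, 74 and 39.2 FPKM and WT drought levels of 0.725, 1.65 and 1.63 FPKM (interaction 4.49 ± 0.36, adjusted p = 0.000117). Without its OE drought libraries this gene would have missed the filter for testing. Its WT rise was lost without WT drought replicates 5 or 6 or WT watered replicates 1 or 2 (adjusted p 0.0674 to 0.115), with no filter (0.0535) and on median-of-ratios scaling (0.122). The ubiquitin ligase ATL56 (Potri.018G098000) had 152, 316 and 139 FPKM in OE drought and 7.91, 9.22 and 33.3 FPKM in WT drought (interaction 4.26 ± 0.79, adjusted p = 0.00816). Downward, MLP-like protein 31 (Potri.008G131300), a Bet v 1-related protein, showed 128, 157 and 209 FPKM in watered and 33.1, 27.3 and 74.7 FPKM in drought WT leaves. The OE libraries held 328, 292 and 494 FPKM watered and 3.99, 3.01 and 6.7 FPKM in drought (interaction -4.12 ± 0.52, adjusted p = 0.00159). A GDSL esterase/lipase of the APG type (Potri.001G191400) stood at 6.45, 6.86 and 7.51 FPKM in OE drought against 162, 154 and 62.1 FPKM in WT drought (interaction -3.56 ± 0.62, adjusted p = 0.00609).

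The 150 genes with the larger response in WT included single genes for a carotenoid enzyme, a wall protein and a sugar exporter. Of 55 tested wall expansion genes 3 were larger in WT and 6 larger in OE. Among 61 tested starch and sucrose genes the counts were 2 and 3. Over all 25373 tested genes they were 150 and 1097. Beta-carotene hydroxylase 2 (Potri.004G074000), which makes the zeaxanthin that ABA synthesis draws on, stood at 2.27, 3.53 and 2.69 FPKM in watered and 192, 140 and 58.2 FPKM in drought WT leaves. OE libraries stood at 7.16, 4.05 and 7.62 FPKM watered and 16.1, 26.3 and 13.7 FPKM in drought (interaction -3.52 ± 0.55, adjusted p = 0.0039). WT drought libraries were the highest, and OE drought lay between them and the watered groups. Expansin-like B1 (Potri.001G151500), of a wall protein family, showed 4.87, 4.81 and 5.92 FPKM in watered and 359, 418 and 89.1 FPKM in drought WT leaves. OE leaves had 16.4, 8.91 and 17.4 FPKM watered and 49.9, 50.7 and 52 FPKM in drought (interaction -3.45 ± 0.65, adjusted p = 0.00852). SWEET15 (Potri.001G060900), a sugar exporter of ageing leaves, stood at 1048, 1274 and 458 FPKM in WT and 285, 212 and 305 FPKM in OE drought (interaction -3.07 ± 0.69, adjusted p = 0.0169). Among genes that fell, DET2 (Potri.010G245266), a steroid reductase of brassinosteroid synthesis, showed 202, 256 and 205 FPKM in watered and 0.432, 1.29 and 5.65 FPKM in drought WT leaves. The OE libraries held 176, 140 and 167 FPKM watered and 10.5, 18.2 and 8.55 FPKM in drought (interaction 2.65 ± 0.63, adjusted p = 0.0205). The call did not hold without WT watered replicate 2 (adjusted p 0.055), against 0.000303 to 0.055 over all settings. A haloacid dehalogenase-like hydrolase (Potri.014G043500) had an interaction of 2.25 ± 0.34 (adjusted p = 0.00346). Its fall in OE was lost without OE drought replicates 4 or 6 or OE watered replicates 1 or 3 (adjusted p 0.0504 to 0.0824), on median-of-ratios scaling (0.0663) and with OE drought replicates 4 and 6 averaged (0.0628). A 21 kDa protein gene (Potri.015G128400) went to 0 FPKM in every WT drought library, from 177, 228 and 122 FPKM, and in OE leaves from 34.6, 24.4 and 76.9 to 0.328, 0 and 0.0835 FPKM (interaction 2.23 ± 0.49, adjusted p = 0.0156), with OE watered below WT watered. The call fell away with voom (0.157) and with the replicate block (0.0526), against 0.000665 to 0.157 over all settings.

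Genes for protective proteins rose in drought in most cases, and the interactions past the test were all negative. Of 16 tested genes for LEA proteins, dehydrins and seed maturation proteins, which shield cell contents during drying, 15 rose in WT (33.9% of all tested genes did) and 12 in OE leaves (27.8%). By the interaction test 7 passed as negative and 9 did not pass (43.8% negative against 10.5% of all tested genes). Median-of-ratios scaling gave 5 negative (31.2%, against 4.15%). In the other direction, with FPKM as deposited, limma called 0 positive, with 0 at an unadjusted p under 0.05 and 0 with voom. The median interaction was -1.55 against -0.28 over all tested genes, and the negative count was 5 without WT watered replicate 2 and as many as 10 without WT drought replicate 6. The highest interaction in the list was 1.99, and 1 gene was called positive without OE watered replicate 2. The low-temperature-induced 65 kDa protein (LTI65, Potri.015G143932) stood at 0.711, 0.584 and 0.775 FPKM in watered and 73.7, 89.7 and 41.4 FPKM in drought WT leaves. In OE leaves it had 2.66, 2.6 and 2.45 FPKM watered and 13.5, 13.6 and 15.6 FPKM in drought (interaction -3.20 ± 0.33, adjusted p = 0.000555). LEA D-29 (Potri.005G122400) showed 3.32, 2.11 and 2.84 FPKM in watered and 248, 186 and 166 FPKM in drought WT leaves. For OE the values were 10.8, 9.99 and 6.07 FPKM watered and 104, 99.3 and 101 FPKM in drought, with 5.73 ± 0.22 (adjusted p = 2.11e-08) in WT, 3.40 ± 0.22 (adjusted p = 1.97e-07) in OE and an interaction of -2.34 ± 0.31 (adjusted p = 0.00183). For both genes WT drought lay above OE drought and OE watered above WT watered, with no overlap. A second LEA D-29 gene (Potri.007G024000) had -1.98 ± 0.31 (adjusted p = 0.00395). Its rise in OE was lost without OE drought replicate 6 (adjusted p 0.0502). An 18 kDa seed maturation protein (Potri.016G046400) had -2.02 ± 0.43 (adjusted p = 0.0145). The last 3 genes, and those of the following paragraphs so marked, were chosen after their values were seen.

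Genes of ABA synthesis and breakdown were called in both directions. Of 18 tested genes 5 passed as positive, 4 as negative and 9 did not pass (5 and 2 with median-of-ratios scaling). The shares were 27.8% and 22.2%, against 4.58% and 10.5% of all tested genes (27.8% and 11.1%, against 8.02% and 4.15%, with median-of-ratios scaling). The median interaction was -0.15. The positive count was 3 without WT watered replicates 2 or 3 and as many as 6 without WT drought replicate 6, and the negative one 1 without OE drought replicate 4, WT drought replicate 4 or WT watered replicate 2 and as many as 7 without WT drought replicate 6. ABA 8'-hydroxylase 2 (Potri.009G033900, chosen after its values were seen), of the enzyme family that breaks ABA down, showed 36.1, 47.6 and 36 FPKM in watered and 26.1, 16.1 and 70.8 FPKM in drought WT leaves. In OE leaves the level was 37.1, 25.5 and 28.2 FPKM watered and 157, 211 and 140 FPKM in drought (interaction 2.78 ± 0.57, adjusted p = 0.0122). OE drought was above all other groups, which overlapped. ABA 8'-hydroxylase 1 (Potri.004G235400, also chosen after its values were seen) overlapped between genotypes in drought, at 242, 213 and 169 FPKM in WT and 239, 170 and 249 FPKM in OE, but at 4.11, 2.5 and 4.24 and 10.4, 14 and 10.1 FPKM when watered (interaction -1.37 ± 0.31, adjusted p = 0.0178). That call ended with the replicate block (0.0531), against 0.00216 to 0.0531 over all settings. An abscisate beta-glucosyltransferase (Potri.001G303801), which stores ABA as its glucose ester, showed 0, 0.329 and 0.35 FPKM in watered and 4.79, 4.93 and 6.89 FPKM in drought WT leaves. OE leaves had 0 FPKM in each library watered and 54.3, 57.5 and 54.1 FPKM in drought (interaction 3.40 ± 0.25, adjusted p = 7.22e-05). The OE drought libraries lay far above WT drought. The other positive calls were abscisic acid 8'-hydroxylase 2 (Potri.001G242600, 1.37, adjusted p 0.0405), abscisate beta-glucosyltransferase (Potri.009G099100, 1.29, adjusted p 0.00872) and abscisic-aldehyde oxidase (Potri.004G191300, 0.92, adjusted p 0.022), and the other negative ones abscisic acid 8'-hydroxylase 4 (Potri.004G140900, -2.52, adjusted p 0.0243), abscisic acid 8'-hydroxylase 3 (Potri.002G069600, -0.93, adjusted p 0.0409) and xanthoxin dehydrogenase (Potri.001G024300, -1.28, adjusted p 0.0498), the last a step of ABA synthesis. These 6 were named after their values were seen. In ABA signalling 8 of 39 tested genes passed as negative (20.5%, against 10.5% of all tested genes), and 4 with median-of-ratios scaling (10.3%, against 4.15%). That scaling gave 1 positive (2.56%, against 8.02%). With FPKM as deposited limma called 0 positive, with 0 at an unadjusted p under 0.05 and 0 with voom. The negative count was 1 without WT watered replicate 2 and as many as 15 without WT drought replicate 6, and the median interaction was -0.52. The bZIP factor described as ABSCISIC ACID-INSENSITIVE 5-like protein 6 (Potri.009G101166, chosen after its values were seen) stood at 39.8, 29.8 and 32.2 FPKM in watered and 139, 114 and 68.9 FPKM in drought WT leaves. OE plants showed 85.8, 92 and 60.6 FPKM watered and 80, 59.5 and 88.8 FPKM in drought (interaction -1.64 ± 0.37, adjusted p = 0.0179). The call was lost without WT watered replicate 2 (adjusted p 0.0514), against 0.000385 to 0.0514 over all settings. The ABA receptor gene PYL2 (Potri.018G054400) fell in OE only (interaction -1.93 ± 0.44, adjusted p = 0.0181). It missed the threshold without WT watered replicate 2 (adjusted p 0.052), against 0.00632 to 0.052 over all settings.

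In the guard cell list 3 of 4 tested genes passed (15.1% of all tested genes did): KAT1 as positive, and both SRK2E genes as negative, of which Potri.004G145500 (chosen after its values were seen) had an interaction of -1.01 ± 0.28 (adjusted p = 0.0348). The latter call ended without any 1 library other than OE drought replicate 6, OE watered replicate 1 and WT drought replicate 6 (adjusted p 0.0511 to 0.0889), on median-of-ratios scaling (0.122), with the replicate block (0.0785) and with OE drought replicates 4 and 6 averaged (0.0521), against 0.00453 to 0.122 over all settings. The summed level of the 7 guard cell genes was 42.6 to 50.2 FPKM in watered and 82.8 to 103 FPKM in drought WT leaves. OE leaves had 48.6 to 70.9 FPKM watered and 58.6 to 63.5 FPKM in drought. This sum includes KAT1 and both SRK2E genes, so it is not a separate measure beside their calls. The part of the sum in the calls was not tested. Of 14 tested genes of stomatal development and GTL1, limma called 0 in either direction, with 1 negative at an unadjusted p under 0.05 and 2 negative with voom. The one nearest the threshold was ERECTA (Potri.006G220100), a receptor kinase that limits stomatal density in Arabidopsis, at -0.89 ± 0.31 (adjusted p = 0.0689). It passed with voom (0.0452) and with library quality weights (0.0211). Both GTL1 genes, of a trihelix factor that in Arabidopsis represses the stomatal protease SDD1, missed the threshold at -0.67 ± 0.39 (adjusted p = 0.239) and -0.68 ± 0.48 (adjusted p = 0.339) (Potri.001G454500 and Potri.011G147400), as did the SDD1-type gene Potri.002G256300 at -0.36 ± 0.36 (adjusted p = 0.51).

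Of the 6 genes described as AP2, the known targets of miR172, 1 passed the interaction test. Potri.005G140700, on chromosome 5, 11805773 to 11809765, plus strand, had 15.3, 15.1 and 14.5 FPKM in watered and 3.45, 4.31 and 5.2 FPKM in drought WT leaves. OE plants showed 12, 16.2 and 11.4 FPKM watered and 9.24, 8.19 and 9.67 FPKM in drought. It fell in WT without overlap and less in OE leaves, with an interaction of 1.11 ± 0.24 (adjusted p = 0.0153). The fall in OE was lost without OE drought replicates 4 or 5 or OE watered replicate 2 (adjusted p 0.0567 to 0.109) and on median-of-ratios scaling (0.0647). The next gene, Potri.010G216200, showed 6.54, 4 and 6.79 FPKM in watered and 4.32, 3.43 and 3.09 FPKM in drought WT leaves. Levels in OE were 3.98, 8.02 and 4.88 FPKM watered and 10.3, 6.33 and 13.3 FPKM in drought. Its interaction of 1.26 ± 0.41 (adjusted p = 0.058) missed the threshold. It passed without OE drought replicate 5 or OE watered replicate 2 (adjusted p 0.0342 to 0.0388), on median-of-ratios scaling (0.0135), when scaled without the 100 most abundant genes (0.0451) and with library quality weights (0.00432). The other 4 (Potri.016G084500, Potri.006G132400, Potri.007G046200 and Potri.008G045300) had interactions of 0.58, 0.04, -0.17 and -0.52 (adjusted p 0.251, 0.937, 0.729 and 0.383). The microRNA itself is not analysed here.

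Of 26 tested ethylene genes 4 passed, 2 in each direction, which at 15.4% is near the 15.1% of all tested genes. By direction 7.69% were positive, against 4.58%, and 7.69% negative, against 10.5%. Without single libraries the positive count was 2, or 3 without WT drought replicates 5 or 6 or WT watered replicate 1. Negative calls numbered 1 without OE drought replicate 4, OE watered replicates 1 or 2, WT drought replicate 5 or WT watered replicates 1, 2 or 3 and as many as 3 without OE drought replicate 6 or WT drought replicate 4. ACC synthase makes the ethylene precursor and ACC oxidase turns it into the hormone. ACC oxidase 1 (Potri.002G224100) stood at 1.54, 2.44 and 4.8 FPKM in watered and 52.1, 186 and 282 FPKM in drought WT leaves. OE plants showed 0.619, 1.95 and 1.81 FPKM watered and 1559, 2256 and 1467 FPKM in drought, with 5.26 ± 0.52 (adjusted p = 9.47e-06) in WT, 9.51 ± 0.52 (adjusted p = 7.58e-08) in OE and an interaction of 4.25 ± 0.74 (adjusted p = 0.00601). The drought groups did not overlap, and OE was the higher. ACC synthase 1 (Potri.002G163700) was also higher in OE drought, with 32.9, 53.1 and 60.1 FPKM in WT and 342, 632 and 262 FPKM in OE drought (interaction 2.74 ± 0.56, adjusted p = 0.0121). It no longer passed with a pseudocount of 0.1 (0.218) and with voom (0.39), against 0.000551 to 0.39 over all settings. ACC oxidase 5 (Potri.005G182700) did the reverse, rising in WT only, with 0.15, 0.154 and 0 FPKM in watered and 15.3, 41.2 and 6.3 FPKM in drought WT leaves. In OE leaves the level was 0.369, 0.564 and 0.242 FPKM watered and 1.3, 1.43 and 1.99 FPKM in drought (interaction -3.08 ± 0.65, adjusted p = 0.0133). The call did not hold with voom (0.0897), against 0.000208 to 0.0897 over all settings. The fourth call was ETHYLENE INSENSITIVE 3 (Potri.010G247500), the master factor of the pathway, which rose more in WT (interaction -1.02 ± 0.29, adjusted p = 0.0357). The call fell away without any 1 library other than OE drought replicates 5 and 6, OE watered replicate 3 and WT drought replicate 6 (adjusted p 0.0549 to 0.0911), on median-of-ratios scaling (0.107), when scaled without the 100 most abundant genes (0.0637) and with the replicate block (0.0773), against 0.00863 to 0.107 over all settings. The last 3 genes were chosen after their values were seen. The other 22 tested ethylene genes did not pass, and the median interaction of the list was -0.23, against -0.28 over all tested genes.

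Among jasmonate genes and ERF factors positive calls outnumbered negative ones. Of 55 tested jasmonate genes 14 passed as positive (25.5%, against 4.58% of all tested genes) and 5 as negative (9.09%, against 10.5%). Median-of-ratios scaling gave 15 positive (27.3%, against 8.02%) and 3 negative (5.45%, against 4.15%). With FPKM as deposited 36 did not pass, and the median was 0.37. The positive count was 10 without OE drought replicate 4, OE watered replicate 1, WT drought replicate 4 or WT watered replicate 2 and as many as 18 without WT drought replicate 6, and the negative one 0 without WT watered replicate 2 and as many as 8 without WT drought replicate 6. The negative calls, named after their values were seen, were lipoxygenase 6 (Potri.008G178000, -1.60, adjusted p 0.0199), coronatine-insensitive protein 1 (Potri.010G192900, -1.53, adjusted p 0.0376), TIFY 4B (Potri.002G048500, -1.12, adjusted p 0.0437), TIFY 8 (Potri.006G247500, -1.16, adjusted p 0.0212) and probable linoleate 9S-lipoxygenase 5 (Potri.008G151500, -1.17, adjusted p 0.0227). The COI1 protein of the second is the jasmonate receptor. Allene oxide synthase 1 (Potri.014G038700), which opens the jasmonate branch, stood at 11.5, 21.2 and 28 FPKM in watered and 32.3, 49.6 and 45 FPKM in drought WT leaves. OE leaves had 13.4, 16.8 and 14 FPKM watered and 253, 292 and 234 FPKM in drought (interaction 2.96 ± 0.38, adjusted p = 0.00169). 12-oxophytodienoate reductase 3 (Potri.018G065600), which acts further down, rose in OE only, with 42.6, 53.1 and 40.6 FPKM in OE and 2.03, 7.99 and 14.3 FPKM in WT drought (interaction 3.70 ± 0.83, adjusted p = 0.0168). Both were chosen after their values were seen, and in both the OE drought libraries exceeded all others. The JAZ-type repressor TIFY 10b (Potri.003G068900), of a family induced by jasmonate in Arabidopsis, had an interaction of 3.89 ± 1.07 (adjusted p = 0.0341). That call ended without any 1 library other than OE drought replicate 6, OE watered replicate 2, WT drought replicate 6 and WT watered replicate 1 (adjusted p 0.0602 to 0.0786) and with no filter, with voom, with the replicate block or with OE drought replicates 4 and 6 averaged (0.0533 to 0.0575), against 0.00172 to 0.0786 over all settings. ERF and DREB factors bind the promoters of ethylene and drought genes. Of 117 tested, 20 passed as positive (17.1%, against 4.58%) and 6 as negative (5.13%, against 10.5%). Median-of-ratios scaling gave 24 positive (20.5%, against 8.02%) and 3 negative (2.56%, against 4.15%). With FPKM as deposited 91 did not pass, and the median was 0.25. Here the positive count was 15 without WT watered replicate 3 and as many as 28 without WT drought replicate 6, and the negative one 1 without WT watered replicate 2 and as many as 8 without WT drought replicate 6. ERF110 (Potri.005G195000) showed 0.0842, 0.173 and 1.47 FPKM in watered and 3.09, 9.4 and 7.17 FPKM in drought WT leaves. Levels in OE were 0.373, 1.22 and 0 FPKM watered and 123, 144 and 113 FPKM in drought (interaction 4.19 ± 0.57, adjusted p = 0.00213). The call was lost with voom (0.0573), against 0.000143 to 0.0573 over all settings. ERF053 (Potri.013G135600, chosen after its values were seen) had 63.3, 70.3 and 56 FPKM in OE and 3.5, 3.96 and 6.86 FPKM in WT drought (interaction 3.71 ± 0.34, adjusted p = 0.000289).

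**Figure D4:**
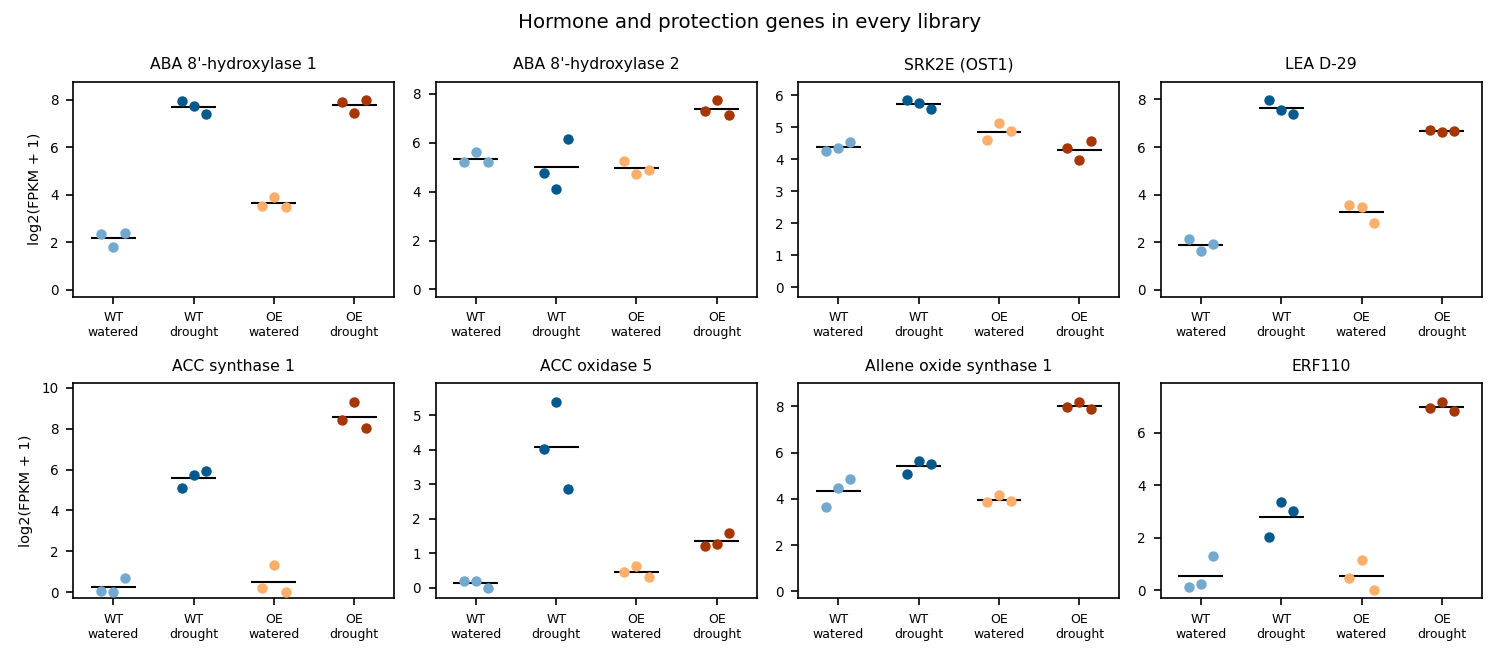
Levels of 8 hormone and protection genes in every library as log2(FPKM + 1), with points for the 3 libraries of each group and lines at the group means. ACC synthase 1, allene oxide synthase 1 and ERF110 are highest in OE drought leaves, whereas ACC oxidase 5, SRK2E and LEA D-29 are highest in WT drought leaves.

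Calcium sensor and WRKY genes were called in both directions, and HD-Zip factors mostly as negative. Of 145 tested calcium sensor genes 17 passed as positive, among them CML37 and CML38 above, 12 as negative and 116 did not pass (24 and 4 with median-of-ratios scaling). The shares were 11.7% and 8.28%, against 4.58% and 10.5% of all tested genes (16.6% and 2.76%, against 8.02% and 4.15%, with median-of-ratios scaling). The positive count was 14 without OE watered replicate 1 or WT watered replicate 2 and as many as 28 without WT drought replicate 6. The negative count was 1 without WT watered replicate 2 and as many as 16 without WT drought replicate 6. WRKY factors, regulators of defence and ageing, had 10 positive and 9 negative calls of 95 (14 and 3 with median-of-ratios scaling). That is 10.5% and 9.47%, against 4.58% and 10.5% of all tested genes (14.7% and 3.16%, against 8.02% and 4.15%, with median-of-ratios scaling). The positive count was 5 without OE drought replicate 4, OE watered replicates 1 or 3 or WT watered replicates 1 or 3 and as many as 13 without WT drought replicate 6, and the negative one 4 without WT drought replicate 4 or WT watered replicate 2 and as many as 12 without WT drought replicate 6. WRKY71 (Potri.001G352400) stood at 77.5, 88.6 and 78.4 FPKM in OE and 6.44, 10.6 and 11.9 FPKM in WT drought (interaction 2.75 ± 0.44, adjusted p = 0.0043). HD-Zip factors had 12 negative calls of 50 (24% against 10.5% of all tested genes), 1 positive and 37 not passing. Median-of-ratios scaling gave 10 negative (20%, against 4.15%) and 2 positive (4%, against 8.02%). With FPKM as deposited the median was -0.85. Negative calls numbered 6 without WT drought replicate 4 or WT watered replicate 2 and as many as 20 without WT drought replicate 6. The list holds both ATHB-7 genes, and the positive call, named after its values were seen, was HAT14 (Potri.016G059000, 1.39, adjusted p 0.0298). PROTODERMAL FACTOR 2 (Potri.004G020400), an epidermal HD-Zip factor, stood at 2.36, 0.984 and 1.94 FPKM in watered and 6.18, 5.23 and 1.89 FPKM in drought WT leaves. OE leaves had 1.92, 5.05 and 3.25 FPKM watered and 0.954, 0.872 and 1.58 FPKM in drought (interaction -1.91 ± 0.51, adjusted p = 0.0314). It missed the threshold without any 1 library other than OE drought replicate 6, OE watered replicate 1, WT drought replicate 6 and WT watered replicate 1 (adjusted p 0.0521 to 0.0802) and with the replicate block (0.076), against 0.00368 to 0.0802 over all settings. The WT response was lost without any 1 library other than OE watered replicates 1 and 2 and WT drought replicate 6 (adjusted p 0.0506 to 0.18) and with a pseudocount of 0.1, with no filter, with a filter at 5 FPKM, on median-of-ratios scaling, when scaled without the 100 most abundant genes, with voom or with OE drought replicates 4 and 6 averaged (0.0549 to 0.107). The OE response was lost without OE drought replicates 4 or 5 or OE watered replicates 2 or 3 (adjusted p 0.0644 to 0.117) and with OE drought replicates 4 and 6 averaged (0.052). The summed level of the 11 epidermis and trichome genes was 113 to 136 FPKM in watered and 109 to 124 FPKM in drought WT leaves. In OE leaves it was 131 to 143 FPKM watered and 42.8 to 78.2 FPKM in drought. That sum includes the called genes themselves, and its part in the calls of such genes was not tested.

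Photosynthesis genes fell in drought in both genotypes, and the calls of the interaction test had OE leaves lower. Of 75 tested genes of the photosystems and antennae 64 fell in WT (21.7% of all tested genes did) and 62 in OE leaves (35%). By the interaction test 21 passed as negative (28%, against 10.5% of all tested genes) and 54 did not pass, with median responses of -2.87 in WT and -4.81 in OE leaves. With median-of-ratios scaling 10 passed as negative (13.3%, against 4.15% of all tested genes), and the median interaction went from -1.67 to -1.27. In the other direction limma called 0 positive, with 4 at an unadjusted p under 0.05 and 1 with voom. The negative count was 5 without OE watered replicate 1 or WT watered replicate 2 and as many as 36 without OE drought replicate 6. The positive count was 1 without OE drought replicate 6, WT drought replicate 6 or WT watered replicate 3. Chlorophyll a-b binding protein 8 (Potri.014G172400), an antenna protein, stood at 1667, 1567 and 1621 FPKM in watered and 98.7, 260 and 274 FPKM in drought WT leaves. OE plants showed 1712, 1479 and 1504 FPKM watered and 27.8, 2.92 and 42.2 FPKM in drought. All OE drought libraries lay below all WT drought libraries, and replicate 5 was the lowest. Its interaction was -3.46 ± 0.99 (adjusted p = 0.0389). It no longer passed without any 1 library other than OE drought replicates 4, 5 and 6 and WT drought replicates 4 and 6 (adjusted p 0.0617 to 0.0825) and with a pseudocount of 0.1, with no filter, on median-of-ratios scaling, when scaled without the 100 most abundant genes, with voom or with the replicate block (0.0508 to 0.0663), against 0.0072 to 0.0825 over all settings. In the Calvin cycle list 1 of 23 tested genes passed as negative (4.35%, against 10.5% of all tested genes), a plastid triosephosphate isomerase (Potri.009G129500, -1.08 ± 0.30, adjusted p = 0.0359). The call did not hold without any 1 library other than OE drought replicate 6, OE watered replicate 2 and WT drought replicates 5 and 6 (adjusted p 0.0531 to 0.083), on median-of-ratios scaling (0.132) and when scaled without the 100 most abundant genes (0.0684), against 0.00528 to 0.132 over all settings. For this list median-of-ratios scaling gave 0 negative and 1 positive (4.35%, against 8.02% of all tested genes). Also, 1 gene was positive without WT drought replicate 6.

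Ribosomal protein genes were called as negative more often than all tested genes with FPKM as deposited. For the cytosolic ones most of these calls depended on the scaling. Of 306 tested genes for cytosolic ribosomal proteins 72 passed as negative (23.5%, against 10.5% of all tested genes). The count was 9 without WT watered replicate 2 and as many as 224 without WT drought replicate 6. Median-of-ratios scaling gave 4 negative (1.31%, against 4.15%) and 1 positive (0.327%, against 8.02%). With FPKM as deposited limma called 0 positive, with 1 at an unadjusted p under 0.05, 0 with voom and 1 without OE drought replicate 6. The median response was 0.64 in WT and -0.06 in OE leaves. Of 132 tested genes for plastid and mitochondrial ribosomal proteins 30 passed as negative (22.7%, against 10.5%). The count was 10 without WT drought replicate 4 or WT watered replicate 2 and as many as 49 without WT drought replicate 6. Median-of-ratios scaling gave 10 negative (7.58%, against 4.15%) and 1 positive (0.758%, against 8.02%). On the deposited values limma called 0 positive, with 2 at an unadjusted p under 0.05 and 0 with voom. The positive count was 1 without OE drought replicate 6, WT drought replicate 4 or WT drought replicate 6. The plastid protein L28 gene (Potri.010G068500) stood at 273, 266 and 304 FPKM in watered and 130, 155 and 79.3 FPKM in drought WT leaves. In OE leaves the level was 382, 319 and 364 FPKM watered and 35.8, 13.9 and 42.7 FPKM in drought (interaction -2.37 ± 0.50, adjusted p = 0.014), with OE drought below all other libraries. The cytosolic L28-1 gene (Potri.T165500) had -1.62 ± 0.39 (adjusted p = 0.0215). The call fell away without OE watered replicate 1, WT drought replicate 4 or WT watered replicates 1 or 2 (adjusted p 0.0508 to 0.0577) and on median-of-ratios scaling (0.0567), against 0.000846 to 0.0577 over all settings. The rRNA-processing protein gene fcf2 (Potri.010G002100) rose in WT only, with 3.89, 1.81 and 1.82 FPKM watered and 13, 11.1 and 7.48 FPKM in drought (interaction -2.31 ± 0.45, adjusted p = 0.01).

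Auxin response genes, which guide growth, were called 28 times as negative and 4 times as positive among 135 tested, and 12 and 7 times with median-of-ratios scaling. The shares were 20.7% negative and 2.96% positive, against 10.5% and 4.58% of all tested genes (8.89% and 5.19%, against 4.15% and 8.02%, with median-of-ratios scaling). Negative calls numbered 12 without WT watered replicate 2 and as many as 46 without WT drought replicate 6. The positive count was 1 without OE drought replicate 5, OE watered replicate 1, WT drought replicate 4 or WT watered replicates 1 or 3 and as many as 6 without OE watered replicate 3, and the median interaction was -0.52. The largest call went up: SAUR36 (Potri.003G113100), a small auxin-induced gene tied to leaf ageing in Arabidopsis, showed 0.303, 0.83 and 1.76 FPKM in watered and 2.29, 2.74 and 5.41 FPKM in drought WT leaves. For OE the values were 0.399, 0.653 and 0.872 FPKM watered and 32.2, 54.9 and 24.8 FPKM in drought (interaction 3.28 ± 0.49, adjusted p = 0.00322), with OE drought above all other groups. Its WT rise was lost without WT watered replicate 1 (adjusted p 0.0565). The other positive calls, named after their values were seen, were SAUR36 (Potri.001G119900, 2.44, adjusted p 0.0425), SAUR40 (Potri.002G000600, 2.08, adjusted p 0.0336) and SAUR50 (Potri.004G164400, 1.15, adjusted p 0.0477). Aquaporins, the water channels, had 6 positive and 4 negative calls of 42 (6 and 2 with median-of-ratios scaling). The shares were 14.3% and 9.52%, against 4.58% and 10.5% of all tested genes (14.3% and 4.76%, against 8.02% and 4.15%, with median-of-ratios scaling). The positive count was 4 without OE drought replicates 4 or 6, WT drought replicates 4 or 5 or WT watered replicates 1, 2 or 3. It was as many as 7 without WT drought replicate 6. The negative count was 1 without WT watered replicate 2 and as many as 6 without WT drought replicate 6. The negative calls, named after their values were seen, were NIP5-1 (Potri.001G455000, -2.38, adjusted p 0.0152), PIP2-7 (Potri.004G176300, -2.09, adjusted p 0.0409), TIP4-1 (Potri.006G239700, -1.40, adjusted p 0.0187) and SIP1-1 (Potri.014G154400, -1.02, adjusted p 0.046). The tonoplast channel TIP1-3 (Potri.008G050700) stood at 141, 145 and 150 FPKM in OE and 42.4, 40.9 and 23.3 FPKM in WT drought (interaction 2.75 ± 0.41, adjusted p = 0.0032). The rise in WT was lost without WT drought replicates 4 or 5 or WT watered replicates 1 or 2 (adjusted p 0.0508 to 0.0626) and on median-of-ratios scaling (0.0554). The plasma membrane channel PIP2-5 (Potri.010G222700, chosen after its values were seen) showed 224, 280 and 291 FPKM in watered and 412, 474 and 318 FPKM in drought WT leaves. Levels in OE were 182, 246 and 235 FPKM watered and 1828, 2048 and 1919 FPKM in drought (interaction 2.55 ± 0.32, adjusted p = 0.00166), with OE drought far above the rest. Its WT rise was lost without any 1 library other than OE drought replicate 5 and WT drought replicate 6 (adjusted p 0.0532 to 0.16) and with no filter, on median-of-ratios scaling, when scaled without the 100 most abundant genes or with OE drought replicates 4 and 6 averaged (0.0594 to 0.33). Pectinesterase 2 (Potri.014G067100), a wall enzyme, rose further in OE (interaction 2.81 ± 0.60, adjusted p = 0.0139). That call ended with a pseudocount of 0.1 (0.0734) and with voom (0.264), against 0.00104 to 0.264 over all settings.

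**Figure D5:**
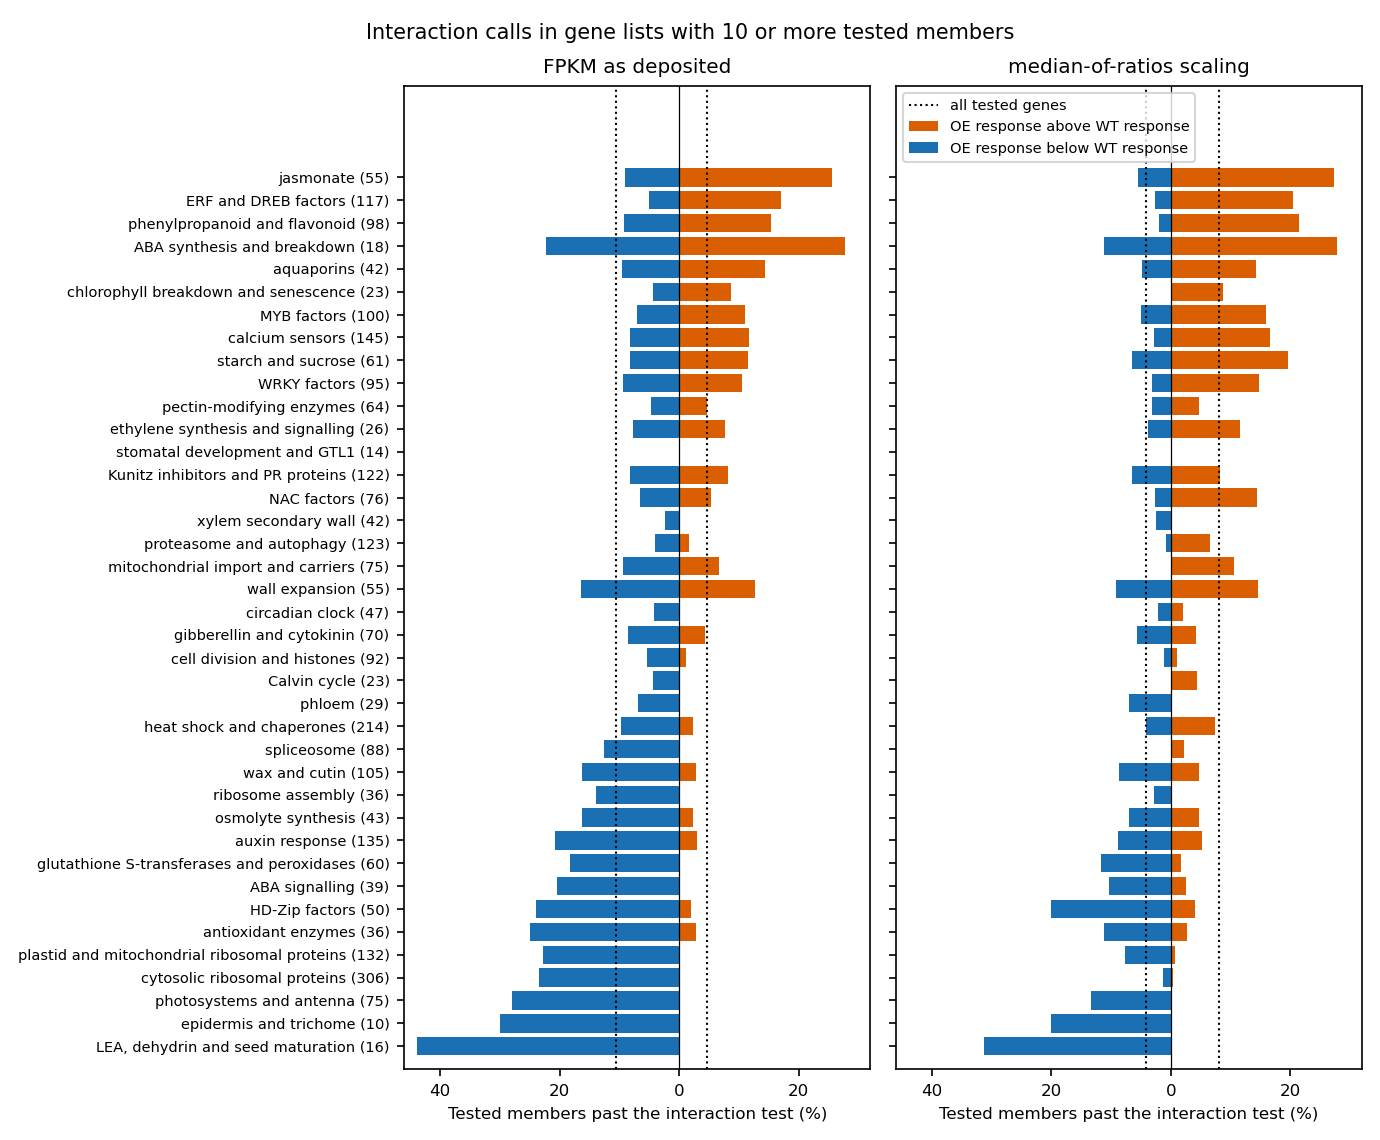
Share of the tested members of each gene list (number tested in brackets) past the interaction test, positive to the right and negative to the left, with FPKM as deposited (left panel) and median-of-ratios scaling (right panel); dotted lines mark the shares over all tested genes. Jasmonate genes and ERF factors reach 25.5% and 17.1% positive with FPKM as deposited, LEA proteins 43.8% negative, and the negative bar of cytosolic ribosomal proteins, 23.5%, nearly disappears under the other scaling.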

How the data were processed

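Leaf RNA of 12 libraries was sequenced in 4 groups of 3. The authors deposited gene-level FPKM values with gene coordinates and descriptions. HISAT2 2.1.0 and Bowtie2 2.2.3 were used, per the submitters' processing notes. The genome build and strand use in counting were not given in the sources used here, so overlapping and antisense genes cannot be told apart. A second deposited FPKM table of the same libraries was not used, and 0 columns belonged to other samples. The depth of each library was worked back first, from FPKM values multiplied by the span of each gene's coordinates. For each gene the shortest length that made its values whole fragments, to within 0.02 fragments, was then taken. Such a length was found for 100% of the 35747 genes. Because lengths were searched, this is a weak check of the depth for genes seen in few libraries.

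Genes with at least 1 FPKM in 3 of the 12 libraries were kept. log2(FPKM + 1) was fitted with limma 3.58.1 (R 4.3.3) with 4 group means, a mean-variance trend and no replicate block, and two-sided p-values received Benjamini-Hochberg adjustment across all genes tested. Python 3.11.15 with numpy 2.4.6, pandas 2.3.3 and matplotlib 3.10.9 made the summaries and figures.

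Alternatives were a pseudocount of 0.1, no filter, a filter at 5 FPKM, median-of-ratios scaling, scaling outside the 100 most abundant genes, voom on the recovered fragments, library quality weights, a replicate block, a threshold of 0.01 within each genotype and leaving out each library. Averaging OE drought replicates 4 and 6 was chosen after seeing the data.

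The genes named were, among those with a description, the 3 with the largest interaction in each class and direction with a group mean of at least 5 FPKM, in each gene list the member past the interaction test with the largest interaction in size (or, where none passed, the tested member with the lowest p), and all AP2, GTL1 and SDD1 genes. Genes marked as chosen or named after their values were seen fall outside this rule. The lists were matched on the deposited descriptions, and some patterns were amended after those descriptions were read. Members, lists and rules were chosen with earlier results of these data known.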

Additional observations from a re-analysis of the deposited data

Results flagged for a closer look

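The effect of drought differed between OE and WT leaves by the interaction test itself in 1163 genes with a positive and 2659 with a negative interaction, and the 78 genes past it among the 87 named are set out here by class. Of the genes already described, the log2 interactions of those classed as OE only were -4.32 for Potri.005G193600, -3.72 for Potri.004G015300, -3.65 for Potri.010G021800, 6.55 for Potri.001G234600, 5.08 for Potri.001G235800, 4.55 for Potri.002G001400, -1.93 for Potri.018G054400, -2.68 for Potri.005G166700, -1.62 for Potri.T165500, -1.80 for Potri.013G056900, 4.19 for Potri.011G089700, -1.90 for Potri.019G085800, 4.19 for Potri.013G148600, 2.78 for Potri.009G033900, 3.70 for Potri.018G065600 and 4.41 for Potri.005G259900. Of the genes already described, the log2 interactions of those classed as WT only were 3.52 for Potri.016G117100, 2.70 for Potri.006G071200, 2.61 for Potri.004G155400, -6.46 for Potri.014G103000, -3.76 for Potri.002G206100, -3.70 for Potri.006G082700, 2.00 for Potri.004G132200, -2.31 for Potri.010G002100, -1.01 for Potri.004G145500, -1.64 for Potri.009G101166 and -3.08 for Potri.005G182700. Of the genes already described, the log2 interactions of those classed as opposite were -4.72 for Potri.004G172300, -4.55 for Potri.003G217000, -4.23 for Potri.009G131800, 5.25 for Potri.005G112700, 3.52 for Potri.T124900, 3.15 for Potri.004G102500, -1.79 for Potri.002G144600, -1.91 for Potri.004G020400 and -1.89 for Potri.009G106900. Of the genes already described, the log2 interactions of those classed as larger in OE were -4.12 for Potri.008G131300, -3.56 for Potri.001G191400, -3.46 for Potri.014G172400, 4.49 for Potri.006G204300, 4.49 for Potri.008G159100, 4.26 for Potri.018G098000, 3.40 for Potri.001G303801, 4.25 for Potri.002G224100, 3.89 for Potri.003G068900, 3.28 for Potri.003G113100, 2.75 for Potri.008G050700, -1.08 for Potri.009G129500, -2.37 for Potri.010G068500, 2.81 for Potri.014G067100, 2.75 for Potri.001G352400, 4.19 for Potri.005G195000, 2.74 for Potri.002G163700, 2.96 for Potri.014G038700, 3.71 for Potri.013G135600 and 2.55 for Potri.010G222700. Of the genes already described, the log2 interactions of those classed as larger in WT were 2.65 for Potri.010G245266, 2.25 for Potri.014G043500, 2.23 for Potri.015G128400, -3.52 for Potri.004G074000, -3.45 for Potri.001G151500, -3.31 for Potri.001G083700, 1.11 for Potri.005G140700, -3.20 for Potri.015G143932, -3.07 for Potri.001G060900, -1.37 for Potri.004G235400, -1.02 for Potri.010G247500, -2.34 for Potri.005G122400, -1.98 for Potri.007G024000 and -2.02 for Potri.016G046400.

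Further genes past the interaction test, each with the largest interaction in size among the members of its list that passed, were not part of the comparisons above. Cytokinin hydroxylase, which makes trans-zeatin type cytokinins (Potri.012G142000) had an interaction of 2.57 ± 0.37 (adjusted p = 0.00254), with 0.0911, 1.05 and 0.441 FPKM in WT drought and 6.69, 10.3 and 5.52 FPKM in OE drought libraries. Without its OE drought libraries this gene would have missed the filter for testing. The call was lost with voom (0.0753), against 0.000233 to 0.0753 over all settings. A senescence/dehydration-associated protein (Potri.T063200) had an interaction of -1.82 ± 0.47 (adjusted p = 0.027), with 8.49, 5.51 and 2.15 FPKM in WT drought and 1.26, 2.34 and 1.45 FPKM in OE drought libraries. It missed the threshold without any 1 library other than OE drought replicates 5 and 6, OE watered replicate 2, WT drought replicate 6 and WT watered replicate 1 (adjusted p 0.0512 to 0.0687), on median-of-ratios scaling (0.0584) and with OE drought replicates 4 and 6 averaged (0.0514), against 0.000301 to 0.0687 over all settings. Its WT response was lost without any 1 library other than OE drought replicate 5 and WT drought replicate 4 (adjusted p 0.0548 to 0.165) and with a pseudocount of 0.1, with no filter, with library quality weights or with OE drought replicates 4 and 6 averaged (0.0569 to 0.0672). Mitochondrial uncoupling protein 5, a carrier of the inner membrane (Potri.005G157300) had an interaction of 2.91 ± 0.34 (adjusted p = 0.0011), with 2.47, 3.74 and 3.09 FPKM in WT drought and 37, 51 and 37.3 FPKM in OE drought libraries. Its WT response was lost without WT drought replicate 5 or WT watered replicate 2 (adjusted p 0.0541 to 0.071) and on median-of-ratios scaling (0.0846). SmD3b, a spliceosome protein (Potri.005G251100) had an interaction of -1.46 ± 0.40 (adjusted p = 0.0328), with 59.9, 56.9 and 26.6 FPKM in WT drought and 16.2, 20.5 and 22.2 FPKM in OE drought libraries. The call did not hold without any 1 library other than OE drought replicate 6, WT drought replicate 6 and WT watered replicate 3 (adjusted p 0.0513 to 0.0817), on median-of-ratios scaling (0.0964), with the replicate block (0.0573) and with OE drought replicates 4 and 6 averaged (0.0526), against 0.00109 to 0.0964 over all settings. Histone H4, a core nucleosome protein (Potri.005G115300) had an interaction of -1.92 ± 0.48 (adjusted p = 0.025), with 8.93, 9.39 and 6.29 FPKM in WT drought and 1.25, 1.79 and 3.49 FPKM in OE drought libraries. The call fell away without OE drought replicates 4 or 5, WT drought replicates 4 or 5 or WT watered replicates 1 or 2 (adjusted p 0.0523 to 0.061) and on median-of-ratios scaling (0.052), against 0.00523 to 0.061 over all settings. Laccase-3, of the lignin-polymerising family (Potri.013G152700) had an interaction of -1.25 ± 0.31 (adjusted p = 0.0237), with 0.505, 1.09 and 1.88 FPKM in WT drought and 0.485, 0.351 and 0.531 FPKM in OE drought libraries. That call ended without OE drought replicate 5 or WT watered replicate 2 (adjusted p 0.0524 to 0.0632) and with the replicate block (0.0517), against 0.00695 to 0.0632 over all settings. CONSTANS-LIKE 2, a B-box zinc finger factor (Potri.017G107500) had an interaction of -2.60 ± 0.70 (adjusted p = 0.0316), with 21.6, 22.3 and 58.2 FPKM in WT drought and 8.27, 1.24 and 7.62 FPKM in OE drought libraries. The call was lost without OE watered replicates 1 or 2 or WT watered replicates 1, 2 or 3 (adjusted p 0.0548 to 0.0753) and on median-of-ratios scaling (0.0539), against 0.00795 to 0.0753 over all settings. NAC domain-containing protein 2, a stress-related NAC factor (Potri.005G069500) had an interaction of 2.29 ± 0.58 (adjusted p = 0.026), with 15.2, 15.8 and 46.8 FPKM in WT drought and 87.8, 119 and 85.5 FPKM in OE drought libraries. It missed the threshold without any 1 library other than OE drought replicates 4 and 6, OE watered replicate 2, WT drought replicate 6 and WT watered replicate 1 (adjusted p 0.0503 to 0.0625) and with the replicate block (0.0509), against 0.000373 to 0.0625 over all settings. Watered WT libraries, at 8.76, 9.46 and 14.7 FPKM, lay below all WT drought libraries, but that WT response of 1.01 ± 0.41 missed the threshold (adjusted p = 0.0545).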

How the results depend on the processing

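Over the 21 alternatives that give an interaction value, 11 of the values of the 87 named genes reversed, 149 lost their call, 7 gained one and 1655 of 1822 kept direction and side of the threshold, and 51 of the 78 genes past the test kept their call throughout. With median-of-ratios scaling the positive and negative genes were 2036 and 1052, WT only 352 and opposite 134. With scaling outside the 100 most abundant genes 1708 were negative and 476 WT only. With voom 745 were positive and 99 larger in WT, out of 3100 called. Library quality weights gave 3000 positive and 5978 negative genes, with 1612 WT only, 3083 OE only, 838 opposite, 2472 larger in OE and 897 larger in WT. With OE drought replicates 4 and 6 averaged 84 were larger in WT, and at a threshold of 0.01 within each genotype 29 were opposite. For all of these the cause was not tested. Without single libraries the counts ran from 659 to 1934 positive, 819 to 4794 negative, 717 to 2571 OE only, 178 to 1561 WT only, 71 to 677 opposite, 456 to 1396 larger in OE and 56 to 440 larger in WT.

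Genes that changed sign passed the interaction test under none of these settings. Potri.006G132400 (0.04) went to -0.09 with OE drought replicates 4 and 6 averaged and to between -0.15 and 0.32 without single libraries. Potri.002G256300 went to 0.03 and Potri.011G147400 to 0.04 with library quality weights, and Potri.007G046200 to 0.22 with median-of-ratios scaling and to between -0.31 and 0.05 without single libraries. With the replicate block 753 genes were positive and 1399 negative. The labels do not state a pairing of samples by number. Libraries of the same number in both genotypes had deviations correlated at 0.0147, -0.497, -0.0171, -0.0542, 0.218 and 0.134 for numbers 1 to 6. A WT library correlated best with its own number for number 5 alone. With 3 libraries a group these values cannot exclude a pairing. With 3 libraries a group, genes near the threshold, and those with few fragments, are the least certain.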

Other observations

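Other gene families showed calls in both directions or as negative only. Of 98 tested genes of phenylpropanoid and flavonoid synthesis, which make lignin, tannins and pigments, 15 were positive and 9 negative (21 and 2 with median-of-ratios scaling). The shares were 15.3% and 9.18%, against 4.58% and 10.5% of all tested genes (21.4% and 2.04%, against 8.02% and 4.15%, with median-of-ratios scaling). The positive count was 4 without WT watered replicate 2 and 22 without WT drought replicate 5. The negative count was 1 without WT watered replicate 2. Kunitz inhibitors and pathogenesis-related proteins, which act in defence, had 10 positive and 10 negative calls of 122 (10 and 8 with median-of-ratios scaling). At 16.4% in all this is near the 15.1% of all tested genes. By direction 8.2% were positive, against 4.58%, and 8.2% negative, against 10.5% (8.2% and 6.56%, against 8.02% and 4.15%, with median-of-ratios scaling). Both counts were 7 without WT watered replicate 2. Of 60 tested glutathione S-transferases and peroxidases, enzymes of detoxification, 11 were negative (18.3%, against 10.5% of all tested genes) and limma called 0 positive, with 5 positive at an unadjusted p under 0.05 and 0 with voom. With median-of-ratios scaling 7 were negative (11.7%, against 4.15% of all tested genes) and 1 positive (1.67%, against 8.02%). The negative count was 7 without WT drought replicate 4, WT drought replicate 5, WT watered replicate 1 or WT watered replicate 2 and 19 without WT drought replicate 6. The positive count was 1 without OE watered replicate 3 or WT drought replicate 6.

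Among markers of other cell types, 1 of 42 xylem genes (laccase-3), 2 of 29 phloem genes and 3 of 10 epidermis and trichome genes were called, all as negative, and limma called 0 as positive, with 5, 0 and 0 at an unadjusted p under 0.05 and 0 with voom in each list. The negative shares were 2.38%, 6.9% and 30%, against 10.5% of all tested genes. In the xylem list 4 genes were positive without WT drought replicate 5, and 0 were negative without OE drought replicate 5 or WT watered replicate 2. In the phloem list 5 were negative without WT drought replicate 6. In the epidermis list 1 was positive without OE watered replicate 2 or OE watered replicate 3. The phloem calls were both SUC2 genes, Potri.019G085800 (-1.90) and Potri.013G115200 (-1.78, adjusted p = 0.00159). The epidermis calls were PROTODERMAL FACTOR 2 and both GLABRA 2 genes, Potri.003G052400 (-1.40, adjusted p = 0.0143) and Potri.001G184100 (-1.34, adjusted p = 0.0499), and 1 of the 3 was left without OE watered replicate 2, OE watered replicate 3, WT drought replicate 4, WT drought replicate 5, WT watered replicate 2 or WT watered replicate 3. Names not covered by the rule were chosen after their values were seen.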
